A study of Mus musculus with 8 samples.

Results

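Surrogate light chain and recombination genes act in precursor lymphocytes, and their methylation was read here in mature cells. The set was 7 genes chosen by name, out of 21755 protein-coding genes of the autosomes and the X: Igll1, Vpreb1, Vpreb2, Vpreb3, Rag1, Rag2 and Dntt. Every CpG in the body of each gene and in 10 kb on either side was taken. Igll1 and Vpreb1 lie next to each other, as do Rag1 and Rag2, so the 7 genes formed 5 stretches of the genome. These held 1864 CpGs listed in at least 1 library and 1758 listed in all 4.

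All mice, females and males, were C57BL/6J at 6-8 weeks of age with no transgene or treatment named in the labels, and the cells came from the spleen. B cells were the resting CD43- fraction and T cells were naive CD4+ CD62L+ cells, sorted as CD44 low and CD25-, with cells of several mice pooled for each biological replicate. Levels came from whole genome sequencing after oxidative bisulfite treatment (WGoxBS), in which an oxidation step before bisulfite makes 5-hydroxymethylcytosine read as unmethylated. The 8 samples gave 4 groups of 2 (B and T cells of females and of males). Each group had 1 table, which may stand for 1 sample or for both, so a group was 1 library and no value below has a standard deviation. The libraries held between 280919817 and 354634149 reads at CpGs, with a median of 14 to 17 reads per CpG. The male B library was the shallowest. A level is the percentage of reads that were methylated, summed over the CpGs of a region, and differences are in percentage points, B minus T. A region was called when the edgeR quasi-likelihood test gave an adjusted p under 0.05 and the mean of the B levels and the mean of the T levels were at least 20 points apart.

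In a precursor B cell the heavy chain is made before the light chain, and it first pairs with a surrogate light chain built from Igll1 (lambda 5) and VpreB. Vpreb1 and Vpreb2 are near copies that both encode VpreB, whereas Vpreb3 encodes a related protein that binds immunoglobulin chains inside the cell. Rag1 and Rag2 form the recombinase that cuts antigen receptor genes in both lineages, and Dntt (terminal transferase) adds bases at the cut ends before they are joined. Mature resting cells have finished this work, so the question was which of these genes still carry low methylation, and in which lineage.

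The promoters of these genes are poor in CpGs, and the few CpGs they hold can be seen in the sequence. The 250 bases before the RefSeq start are shown for 3 genes that were low in B cells and for Rag2, which was low in both cell types. For Vpreb2 the 250 bases before its GENCODE start are shown. All are from RefSeq, GRCm38.p6, 5′ to 3′ on the strand of the gene, with each CG in capitals.
Igll1: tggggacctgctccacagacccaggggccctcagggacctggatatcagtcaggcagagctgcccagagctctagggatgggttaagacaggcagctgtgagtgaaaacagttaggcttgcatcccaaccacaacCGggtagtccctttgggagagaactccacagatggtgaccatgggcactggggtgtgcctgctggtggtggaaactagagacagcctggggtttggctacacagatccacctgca
Vpreb1: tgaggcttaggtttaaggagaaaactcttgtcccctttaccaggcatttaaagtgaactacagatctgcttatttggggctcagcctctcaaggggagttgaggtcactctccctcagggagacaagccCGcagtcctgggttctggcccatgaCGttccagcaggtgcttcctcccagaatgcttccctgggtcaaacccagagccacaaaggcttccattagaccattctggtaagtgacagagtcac
Vpreb2: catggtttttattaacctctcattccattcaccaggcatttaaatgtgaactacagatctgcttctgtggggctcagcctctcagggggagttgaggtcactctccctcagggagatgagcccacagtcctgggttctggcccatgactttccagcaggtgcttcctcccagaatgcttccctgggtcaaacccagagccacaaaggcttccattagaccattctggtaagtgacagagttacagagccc
Vpreb3: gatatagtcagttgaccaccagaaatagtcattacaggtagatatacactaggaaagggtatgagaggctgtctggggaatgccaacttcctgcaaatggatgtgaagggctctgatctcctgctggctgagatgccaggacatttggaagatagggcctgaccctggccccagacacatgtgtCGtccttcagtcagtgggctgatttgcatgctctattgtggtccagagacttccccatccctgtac
Rag2: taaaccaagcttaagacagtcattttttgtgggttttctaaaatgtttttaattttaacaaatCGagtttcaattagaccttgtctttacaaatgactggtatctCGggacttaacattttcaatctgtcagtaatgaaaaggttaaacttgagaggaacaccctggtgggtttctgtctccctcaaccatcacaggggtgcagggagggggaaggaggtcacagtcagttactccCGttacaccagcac

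The stretches are chr16:16863986-16864235 (Igll1, minus strand), chr16:16869256-16869505 (Vpreb1, minus strand), chr16:17980178-17980427 (Vpreb2, plus strand), chr10:75948050-75948299 (Vpreb3, plus strand) and chr2:101624462-101624711 (Rag2, plus strand). The Vpreb1 stretch overlaps an exon of a longer GENCODE transcript without a coding sequence. Igll1 and Vpreb3 hold 1 CG each, Vpreb1 holds 2, Rag2 holds 3 and Vpreb2 none. The median over the 250 bases before 20061 RefSeq starts was 10, and 27.3% of them held at most 3. Rag1 holds 3 and Dntt 2, and the window before the RefSeq start of Vpreb2 also holds none, as in 6.18% of all windows. A search of the 250 bases before each RefSeq start on both strands (for Vpreb2 a window that overlaps the printed one but is not the same) for CANNTG found 5 matches in Vpreb3, a number reached by 0.818% of all windows, 3 each in Igll1, Rag1 and Dntt, reached by 9.90%, 2 in Vpreb2 and 1 each in Vpreb1 and Rag2. CCCNNGGG was found in Igll1 alone of the 7, and in 13.9% of all windows. TGGGAA was found in Vpreb2 and Rag1, and in 21.2% of all windows. Matches of different motifs may overlap, and a match is only a run of letters.

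Of the 7 promoters, taken as 1 kb on either side of the GENCODE gene start, 3 were called between B and T cells, against a background of 1.37% of 20501 promoters. Igll1 and Vpreb2 were lower in B cells, as were 0.41% of all promoters, and Dntt was lower in T cells, as were 0.956%. The annotated start mattered for 3 genes. GENCODE sets the start of Vpreb1 1588 bases and that of Vpreb3 5243 bases away from the RefSeq start, because it counts longer transcripts, and the starts of Vpreb2 lie 137 bases apart. With RefSeq starts 4 of the 7 promoters were called, against 1.58% of 19319, and these were Igll1, Vpreb1 and Vpreb3 (lower in B cells, as were 0.497% of all) and Dntt (lower in T cells, as were 1.09%). Vpreb2 was then not called. The RefSeq starts were chosen after the data were seen. Only the main fit was made with them, so no fit by limma, without the sex term or without a library stands beside those calls.

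**Figure D1:**
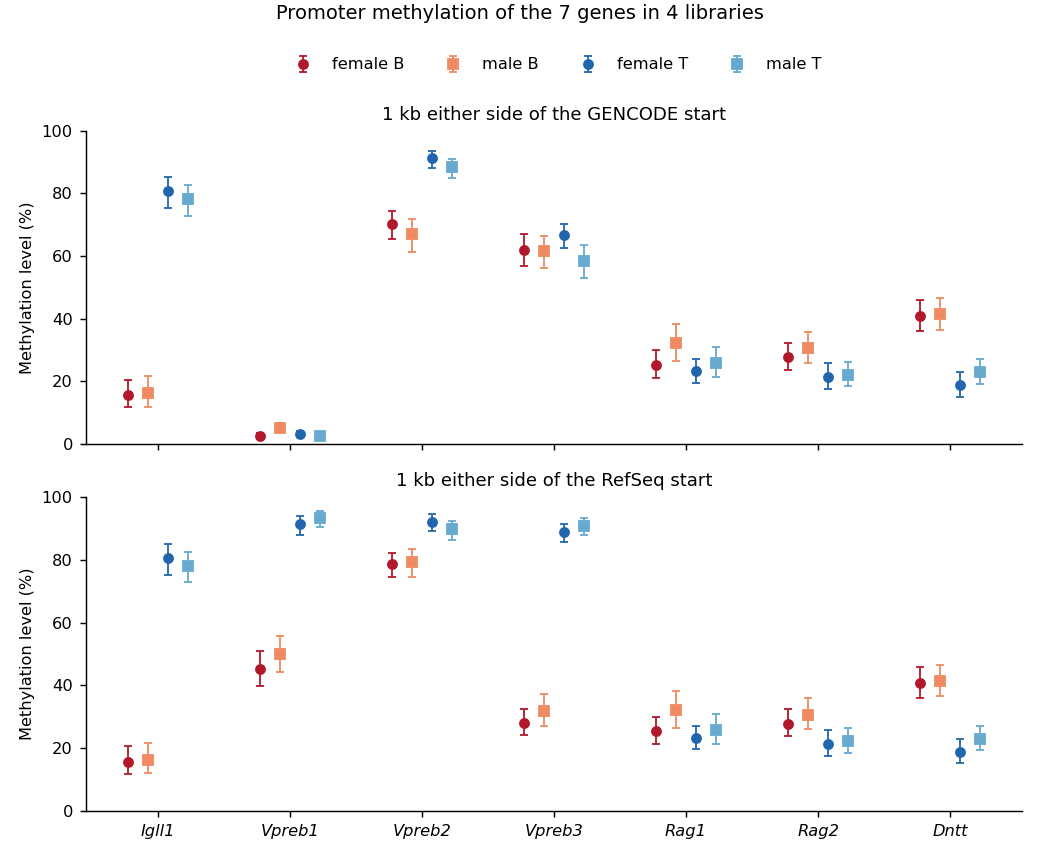
Methylation level (percent of reads) of the promoters of the 7 genes in each of the 4 libraries, around GENCODE starts (top) and RefSeq starts (bottom); points are libraries and bars are 95% Wilson intervals, which cover counting error only. The B and T libraries of Igll1 stand apart in both panels, those of Vpreb1 and Vpreb3 stand apart in the lower panel only, and Rag1 and Rag2 lie between 21.4% and 32.1% throughout.

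Igll1 (ENSMUSG00000075370.12, chr16:16860671-16863985, minus strand) encodes the constant-like part of the surrogate light chain and had the largest promoter difference of the 7. Its promoter level was 15.8% in female B (11.9 to 20.5, the 95% Wilson interval) and 16.3% in male B cells (12 to 21.7), against 80.7% in female T (75.3 to 85.2) and 78.1% in male T cells (72.8 to 82.5). Both B libraries were far below both T libraries. The difference was -63.4 points, with an edgeR adjusted p of 1.69e-54. The size of that p rests on a fit in which all promoters share 1 spread, and without the sex term it was 0.00234. Igll1 was called in each of the 4 fits that left out 1 library.

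The single CG of the Igll1 sequence printed above lies 114 bases before the start. None of its 18 reads was methylated in female B cells and none of 22 in male B cells, whereas 18 of 22 were in female T cells and 10 of 23 in male T cells. The low level in B cells ran over 15 CpGs and 1648 bases, from 16863230 to 16864877, on both sides of the gene start. It held all 15 CpGs of the tested promoter window.

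Vpreb1 (ENSMUSG00000059305.12, chr16:16868403-16870843, minus strand) lies upstream of Igll1 and encodes the variable-like part of the surrogate light chain. Around its RefSeq start the level was 45.4% in female B, 50% in male B, 91.4% in female T and 93.5% in male T cells. The B libraries were below the T libraries by 44.7 points on average (edgeR adjusted p 1.03e-39 in the main fit, the only one at RefSeq starts). The CpGs of the window differed among themselves, and at a single CpG of bulk DNA a share of cells and a share of alleles cannot be told apart. Within this window 8 CpGs over 1128 bases were low in B cells only, at 22.9% in female B, 19.5% in male B, 87.5% in female T and 90.5% in male T cells. The 2 CGs of the printed sequence, 95 and 120 bases before the start, had 2 methylated of 39 reads in female B and 1 of 41 in male B cells. In female T cells 34 of 42 and in male T cells 43 of 48 were methylated.

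The promoter read from the GENCODE start of Vpreb1 gave a different picture, because that window covers the CpG-dense start of Top3b (a topoisomerase gene that begins beside the longer Vpreb1 transcripts). Its 68 CpGs were at 2.56% in female B, 5.16% in male B, 3.12% in female T and 2.69% in male T cells. The difference of 0.956 points was not called (edgeR adjusted p 0.526), and the level was low in all 4 libraries.

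The B libraries were lower around Igll1 and around Vpreb1, but not throughout the interval between the 2 genes. Of 22 tiles of 1 kb tested in this stretch, 6 were called, all lower in B cells. Over all stretches 20 of 148 tiles were called, or 13.5%, against 3.17% of 1530528 tiles genome-wide. Of these, 16 were lower in B cells, as were 0.812% of all tiles, and 4 lower in T cells, as were 2.36%. With no minimum difference 42 passed, against 9.35%, 27 of them lower in B cells (2.19% of all tiles) and 15 lower in T cells (7.16%). The 6 formed 2 runs. The first covered the 5′ part of Igll1 and its start from 16862001 to 16865000, with differences of -53.4, -73.6 and -54.1 points. The second ran from 16867001 to 16870000, with -38.0, -32.5 and -71.3 points, from downstream of Vpreb1 to beyond its RefSeq start. The tiles between the 2 runs held too few CpGs to be tested, so they cannot show whether the B difference stopped there. The CpG at 16865037 was at 32.3% in female B, 41.7% in male B, 87.5% in female T and 85.2% in male T cells. That at 16866112 was at 0% in all 4 libraries. That at 16866372 was at 70%, 52.4%, 76% and 56.5% in the same order. At 16866948 the levels were 0%, 0%, 8.33% and 33.3%. Each of the 6 called tiles was called in all 4 fits that left out 1 library.

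**Figure D2:**
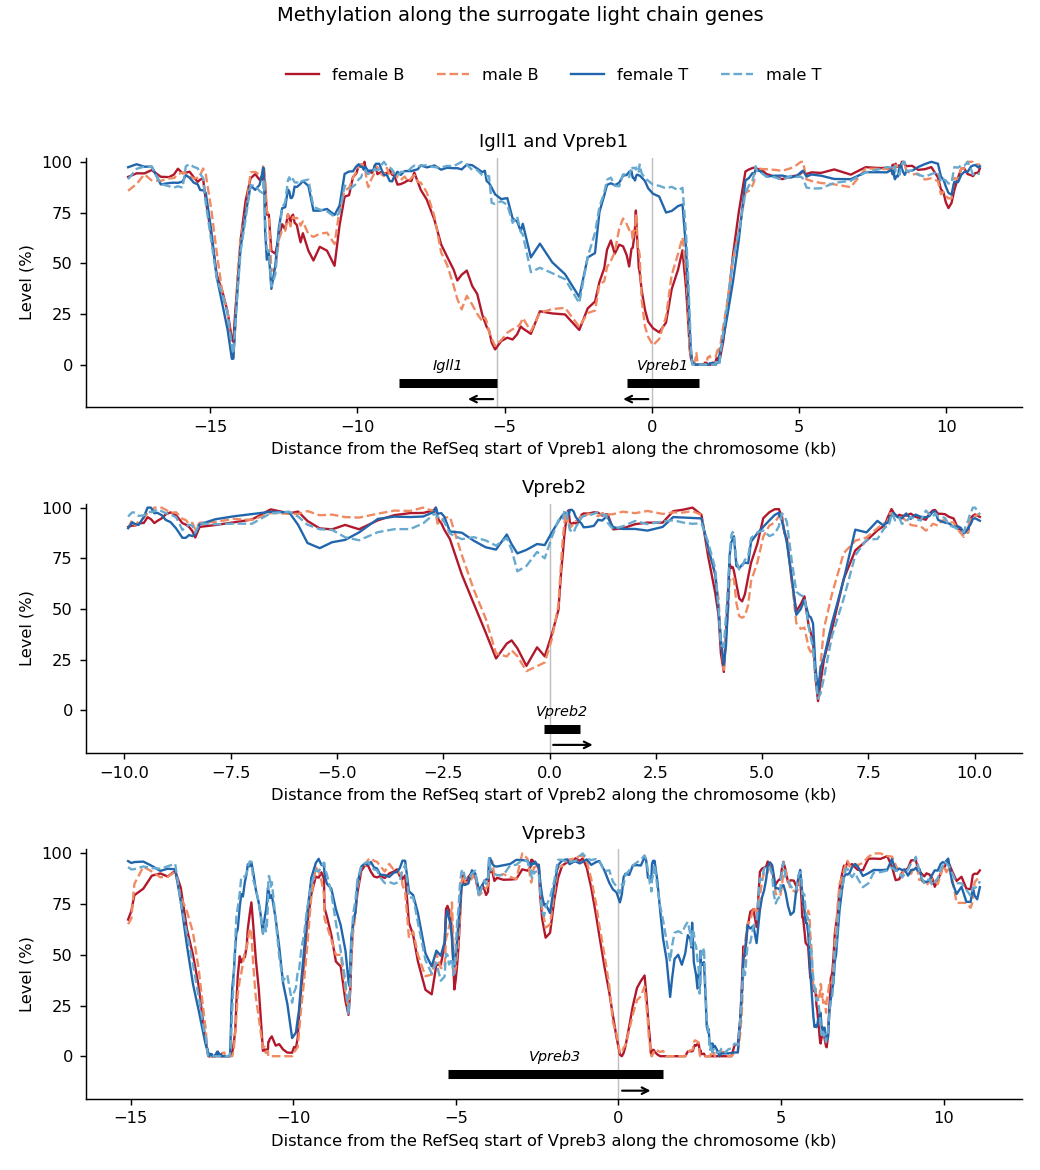
Level over 5 neighbouring CpGs (percent) along Igll1 and Vpreb1 (top), Vpreb2 (middle) and Vpreb3 (bottom), against distance in kb from the RefSeq start of Vpreb1, Vpreb2 or Vpreb3; lines are libraries, black bars the GENCODE gene bodies, arrows the direction of transcription and grey lines the RefSeq starts. The B lines drop at each RefSeq start while the T lines stay high there, and all 4 lines drop together at the start of Top3b, right of Vpreb1.

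Vpreb2 (ENSMUSG00000059280.4, chr16:17980428-17981273, plus strand) is the near copy of Vpreb1, about a megabase away. Its promoter level around the GENCODE start was 70.1% in female B (65.5 to 74.2), 66.9% in male B (61.4 to 71.9), 91.2% in female T (88.0 to 93.6) and 88.3% in male T cells (84.8 to 91.1). The B libraries were lower by 21.3 points (edgeR adjusted p 2.13e-13), which is just over the minimum of 20. The call was lost in 3 of the 4 fits that left out 1 library, the exception being the fit without female B cells, and around the RefSeq start the difference was -12.1 points. With 500 bases on either side of the GENCODE start it was -41.8.

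The low part of Vpreb2 in B cells lay upstream of the gene and stopped inside it. Over 9 CpGs and 1343 bases, from 17979422 to 17980764, the level was 27.4% in female B, 22.5% in male B, 83.4% in female T and 80.7% in male T cells. Single CpGs of the run varied. That at 17979886 was at 76.5% in female B and 54.5% in male B cells. That at 17979995 had 2 methylated of 7 reads in female T and 1 of 10 in male T cells. At 17980134 the counts were 4 of 9 and 8 of 16 in the same T libraries. Of 16 tiles tested 2 were called, both lower in B cells, as were 0.812% of all tiles. They were 17979001 to 17980000 with -54.3 points and the next with -29.9. The CpG 10 bases past the RefSeq start had 1 methylated of 23 reads in female B and 0 of 13 in male B cells, against 24 of 27 in female T and 24 of 25 in male T cells.

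Vpreb1 and Vpreb2 aligned over 1425 columns at 96.6% identity, with 46 mismatches and a longest identical run of 196 bases. Reads that fall wholly inside such a run cannot be told apart between the copies, and the handling of such reads in the deposited tables is not given in the sources used here. The alignment held 15 CGs in both copies, 4 in Vpreb1 only and 5 in Vpreb2 only, and 14 of the shared CGs were listed in all 4 libraries for both copies. Over these 14, Vpreb1 was at 54.7% in female B, 57.6% in male B, 92.8% in female T and 94.2% in male T cells. The same sites in Vpreb2 were at 78.1%, 82.9%, 94.4% and 94.0% in the same order. In B cells Vpreb1 was thus lower than Vpreb2 in both libraries, and in T cells both copies were above 92%. No test was made between the copies.

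**Figure D3:**
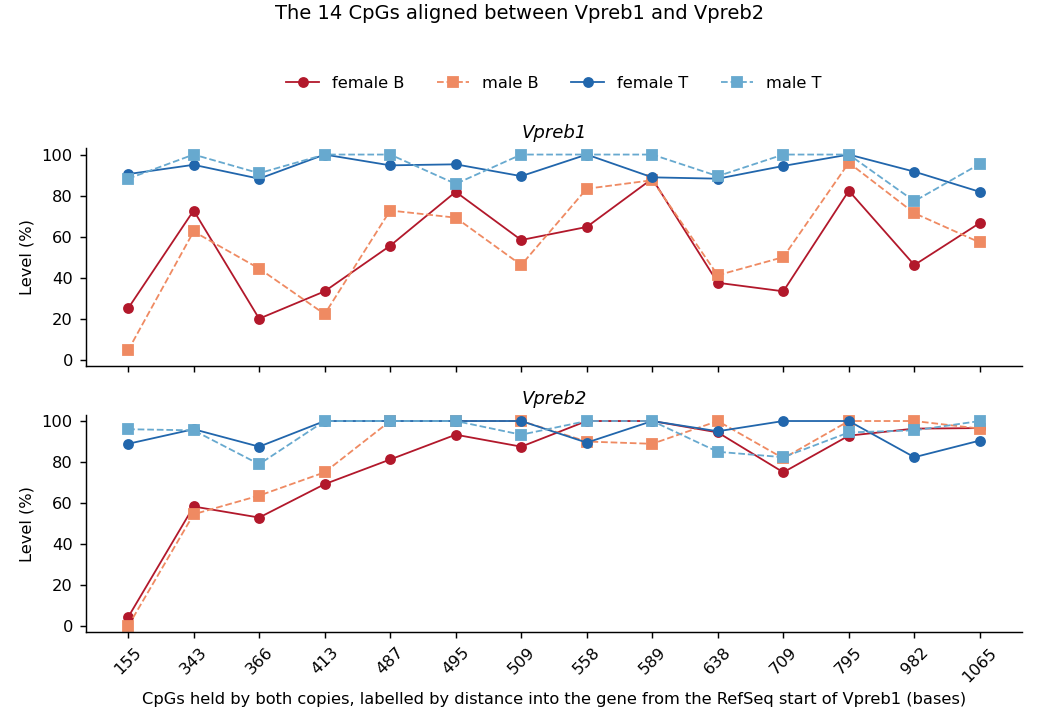
Level (percent) of the 14 CpGs that align between Vpreb1 (top) and Vpreb2 (bottom), in order of distance in bases from the RefSeq start of Vpreb1; points are single CpGs in each of the 4 libraries. At the CpG nearest the start both copies are at or under 25% in B cells and at or over 88.2% in T cells, and further into the gene the B points of Vpreb2 lie mostly higher than those of Vpreb1.

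Vpreb3 (ENSMUSG00000000903.3, chr10:75943057-75949657, plus strand) lay in the stretch with the most CpGs low in B cells only, 57 of 405, some of them in neighbouring genes. Around its RefSeq start the level was 28.2% in female B (24.2 to 32.5), 31.9% in male B (27.0 to 37.3), 88.8% in female T (85.8 to 91.3) and 91.0% in male T cells (87.9 to 93.3). The B libraries were lower by 59.9 points (edgeR adjusted p 2.52e-62 in the main fit, the only one at RefSeq starts). From 75947902 to 75949442, over 26 CpGs and the first exon of the shorter transcript and into its second, the level was 10.4% in female B and 8.23% in male B cells against 90.0% in female T and 89.8% in male T cells. The 1 CG of the printed sequence, 66 bases before the start, had 1 methylated of 26 reads in female B and 0 of 14 in male B cells, and 15 of 22 in each T library. Around the GENCODE start of the longer transcript the level was between 58.4% and 66.6% in all 4 libraries, a difference of -0.737 points that was not called.

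Of 27 tiles tested in the Vpreb3 stretch 6 were called, all lower in B cells, as were 0.812% of all tiles. A run of 4 covered the 3′ part of the gene, which holds the RefSeq start, and its downstream side from 75947001 to 75951000, with -23.6, -73.2, -77.0 and -49.7 points. The other 2 lay upstream in a neighbour, Chchd10 (a mitochondrial protein gene). The tile at 75937001, which also overlaps Gm867 and holds the start of a short Chchd10 transcript, was at 14.4% in female B, 9.41% in male B, 77.1% in female T and 77.6% in male T cells (-65.4 points), and the tile at 75933001, which also overlaps Mmp11, had -26.9 points. The main start of Chchd10 itself, at 75935574 to 75936452, was under 3% in all 4 libraries.

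Rag1 and Rag2 had starts that were low in both cell types. Rag2 (ENSMUSG00000032864.4, chr2:101624718-101632529, plus strand) had a promoter level of 27.8% in female B, 30.7% in male B, 21.4% in female T and 22.1% in male T cells. The T libraries were lower than the B libraries by 7.50 points, which missed the threshold (edgeR adjusted p 0.0731) and changed to -0.123 points with 500 bases on either side. Its start lay in a run of 15 CpGs over 1401 bases with 9.47%, 11.2%, 9.88% and 12.8% in female B, male B, female T and male T cells. The 3 CGs of the printed Rag2 sequence were at 8.16%, 4.55%, 5.26% and 12.1% in that order.

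Rag1 (ENSMUSG00000061311.6, chr2:101638282-101649501, minus strand) gave 25.3% in female B, 32.1% in male B, 23.2% in female T and 25.9% in male T cells. The difference of 4.19 points did not pass (edgeR adjusted p 0.445). A run of 9 CpGs over 582 bases at its start was at 11.3%, 14.8%, 9.85% and 8.98% in female B, male B, female T and male T cells. Both promoters hold few CpGs (17 and 23 in the tested windows), and promoters of that kind are mostly methylated in these cells. Of 4246 autosomal promoters with 10 to 30 CpGs, the median level was 85.4% in B and 84.5% in T cells, and 317, or 7.47%, were under 35% in all 4 libraries. Rag1 and Rag2 were among the 317. The limit of 35% lies just above the highest level of the pair, 32.1%, so this place is a description and no test. With a limit of 50% the number was 501, or 11.8%.

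Within Rag1 a short patch of the coding exon was low in B cells only. It spans 141 bases, chr2:101644056-101644196, and 8 CpGs, about 5 kb into the gene. Its sequence is given from the RefSeq genome (GRCm38.p6, minus strand, 5′ to 3′, each CG in capitals), because the low level in B cells ended on both sides of it.
Rag1 exon: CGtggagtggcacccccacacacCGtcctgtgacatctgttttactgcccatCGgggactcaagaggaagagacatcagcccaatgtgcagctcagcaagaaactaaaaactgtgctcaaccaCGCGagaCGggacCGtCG

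The patch was at 23.1% in female B (238 reads), 18.0% in male B (167 reads), 89.4% in female T (208 reads) and 90.0% in male T cells (211 reads). Single CpGs lay between 0% and 66.7% in B cells and between 84.0% and 96.3% in T cells. The next CpG on one side, at 101643964, was at 84.2% in female B and 77.4% in male B cells, and the CpG at 101644280, past the other end, was at 96.0% and 100%. The 1-kb tile around the patch was called with -24.7 points (edgeR adjusted p 5.54e-20). It is a mean of 25 CpGs, and it was called in all 4 fits that left out 1 library.

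Of 36 tiles tested around Rag1 and Rag2 4, or 11.1%, were called, against 3.17% of all tiles. Of these, 2 were lower in B cells (0.812% of all tiles) and 2 lower in T cells (2.36%). The second tile lower in B cells was 101651001 to 101652000, upstream of Rag1 and between genes, with 42.2% in female B, 40.9% in male B, 85.4% in female T and 79.5% in male T cells. The tiles lower in T cells lay in the intron of Rag1 (101646001, 20.7 points) and downstream of Rag1 (101637001, 21.1 points), both within an intron of the overlapping gene B230118H07Rik. The first of these was not called in any fit that left out 1 library, and the second had 9.48 points without male T cells and was not called without female B cells either.

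Further low runs around the pair were shared by both cell types, such as 12 CpGs at 101621055 to 101622059, about 3 kb upstream of Rag2, at 7.39%, 7.04%, 8.60% and 8.19% in female B, male B, female T and male T cells. In total 8 runs low in both, those at the gene starts included, covered 4669 bases of the stretch. They held 16.6% of its CpGs, against 14.3% in all protein-coding gene windows, and with a limit of 30% in place of 50% on the level the shares were 10.6% and 12.7%.

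Dntt (ENSMUSG00000025014.13, chr19:41029275-41059525, plus strand) was the only one of the 7 called lower in T cells. Its promoter level was 40.8% in female B (35.9 to 45.8), 41.5% in male B (36.5 to 46.6), 18.7% in female T (15.2 to 22.9) and 23.0% in male T cells (19.3 to 27.2). The difference of 20.3 points (edgeR adjusted p 9.25e-08) is close to the minimum of 20. It was 17.8 with at least 10 reads per CpG and 17.7 with 500 bases on either side, neither of them called, and leaving out any 1 library lost the call, with differences of 18.2 to 22.4.

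The start of Dntt was partly methylated in B cells at single CpGs, such as that 187 bases before it, which was at 78.9% in female B, 81.8% in male B, 30.8% in female T and 42.9% in male T cells. Further into the gene the level was low in all libraries. There 24 CpGs over 2731 bases, from 41029580 to 41032310, were at 21.6% in female B, 22.2% in male B, 8.94% in female T and 9.84% in male T cells. Of 47 tiles tested 2, or 4.26%, were called, against 3.17% of all tiles. Both, from 41029001 to 41031000, were lower in T cells, as were 2.36% of all tiles. Their differences were 21.9 and 25.9 points, and the first was lost without female T cells (17.8 points). In both cell types 11 runs, with 7572 bases in all, were low, and 1 of them overlapped an exon about 10 kb into the gene with 7.11%, 5.88%, 2.14% and 4.00% in female B, male B, female T and male T cells. The runs held 18.8% of the CpGs of the stretch, against 14.3% in all gene windows, and with the limit of 30% the shares were 9.6% and 12.7%.

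**Figure D4:**
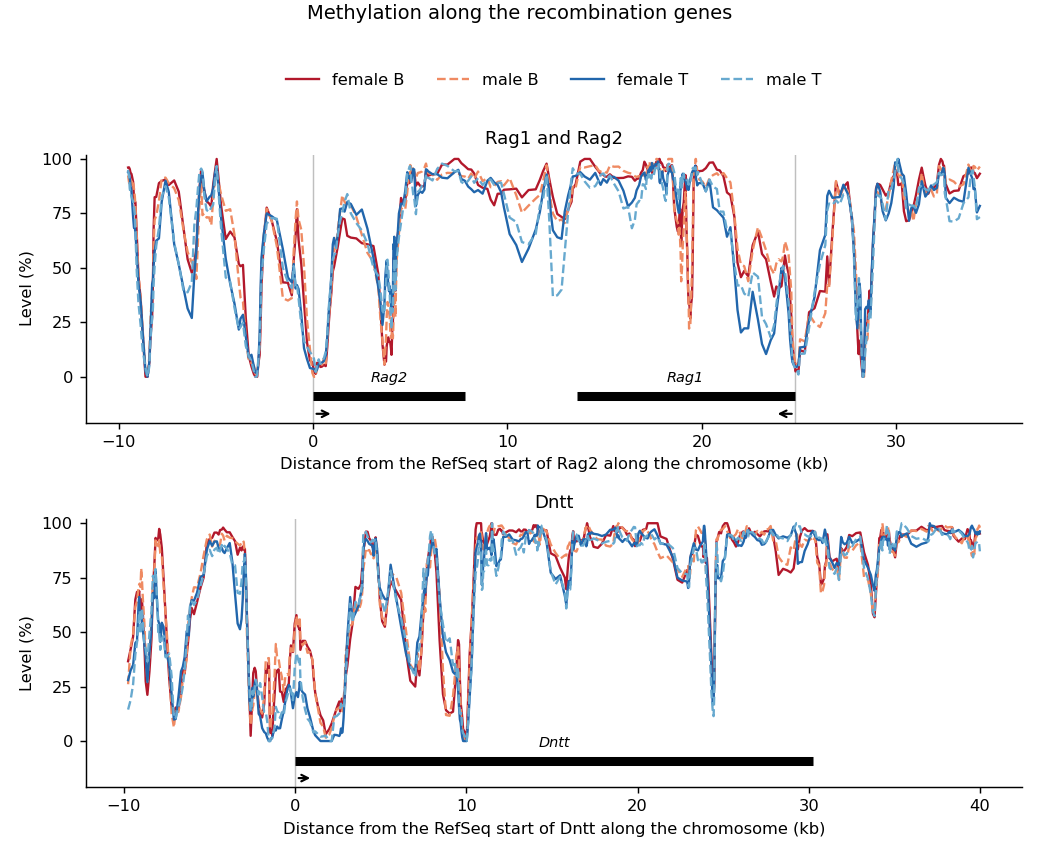
Level over 5 neighbouring CpGs (percent) along Rag1 and Rag2 (top) and Dntt (bottom), against distance in kb from the RefSeq start of Rag2 or Dntt; lines are libraries, black bars the GENCODE gene bodies, arrows the direction of transcription and grey lines the RefSeq starts. All 4 lines are low at the starts of Rag1 and Rag2, the B lines alone drop at the patch of the Rag1 exon (about 19 kb on this axis), and the B lines lie above the T lines at the start of Dntt.

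The low parts of the 5 stretches were also counted CpG by CpG, as runs of at least 4 CpGs in a library whose level over 3 neighbours was under 50%. CpGs low in both B libraries and in neither T library were 6.03% of the 1758, against 0.507% of the CpGs in all protein-coding gene windows. They were 14.1% around Vpreb3, 9.06% around Igll1 and Vpreb1, 5.56% around Vpreb2, 3.37% around Rag1 and Rag2 and 0.2% around Dntt. With a limit of 30% these shares were 16% around Vpreb3, 7.97% around Igll1 and Vpreb1, 0 around Vpreb2, 1.93% around Rag1 and Rag2 and 1% around Dntt, or 5.69% in all against 0.356%. At the limit of 50%, 57 CpGs around Vpreb3 were low in B cells only. A run of 26 of them lay over its RefSeq start and a run of 11 between genes. Runs of 15 and 3 overlapped the neighbour Chchd10, so the share is not one of Vpreb3 alone. CpGs low in T cells only were 1.25% against 1.16%, and were found around Rag1 and Rag2 (2.65%) and Dntt (2.2%). With the limit of 30% they were 0.482% and 4.2% there, and 1.31% in all against 0.808%. CpGs low in both cell types were 21% against 14.3%, and with the limit of 30% they were 14.1% against 12.7%. Of the 369 CpGs behind the 21%, 63 lay at the CpG-dense start of Top3b and 55 at the main start of Chchd10. Both are neighbours and not members, so the excess cannot be read as a trait of the 7 genes.

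Averaged over the gene body and 10 kb on either side, no gene was called, where 0.43% of 21611 windows were. The differences were -11.8 points for Vpreb3, -9.92 for Igll1, -9.89 for Vpreb1, -3.05 for Vpreb2, -0.896 for Rag1, 2.57 for Rag2 and 4.15 for Dntt. All but those of Rag1 and Rag2 passed the adjusted p with no minimum difference, as did 39.8% of all windows. Lower levels in B cells were rare among these, at 1.95% of all windows. In gene bodies alone Igll1 (52.8% in female B, 52.9% in male B, 95.3% in female T and 96.3% in male T cells) and Vpreb3 (56.3%, 59.0%, 87.0% and 87.4%) were called lower in B cells, as were 0.0852% of 21139 bodies, where 1.06% were called in either direction.

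**Figure D5:**
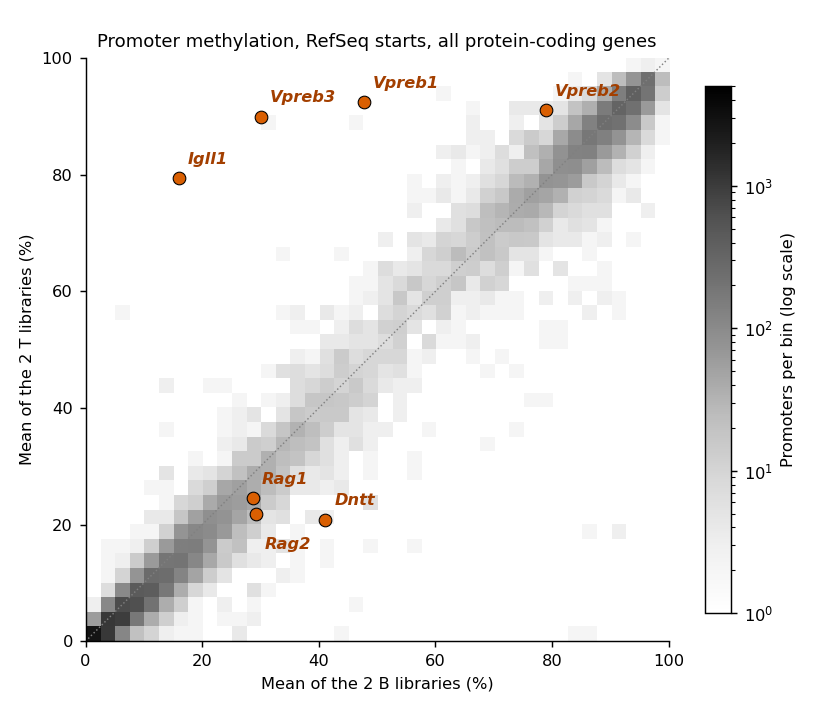
Mean promoter level of the B libraries against that of the T libraries (percent) for all protein-coding genes with RefSeq starts, as the number of promoters per bin on a log scale, with the 7 genes in orange; the dotted line marks equal levels. Igll1, Vpreb1 and Vpreb3 lie far above the line (higher in T), Dntt below it, and Rag1, Rag2 and Vpreb2 nearer to it.

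None of the 7 promoters, all of them autosomal, was called between females and males (1.99% of all promoters were). No tile of the 5 stretches was called between females and males, where 0.0868% of all tiles were. Both shares include the X, and none was taken for the autosomes alone. By edgeR 6 of the 148 tiles had an unadjusted p under 0.05 for sex, and by limma 3. For the difference between B and T cells differing between the sexes the counts were 0 called (0.000784% of all tiles), with 1 and 3 at an unadjusted p under 0.05. With 1 kb on either side, the promoter differences of the 7 genes had the same sign in females and in males, except those of Vpreb1 and Vpreb3 around GENCODE starts.

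The partners of these genes were read in 3 further lists, at GENCODE starts. Of 13 genes that help the recombinase or join the ends it cuts none was called, against 1.37% of all promoters, and 12 of them had means under 20% in both cell types, as had 56.0% of all promoters. The exception was Xrcc6 (Ku70), at 88.0% in female B, 92.2% in male B, 86.9% in female T and 88.2% in male T cells, a difference of 2.57 points. That window held 14 CpGs around the GENCODE start, and the level at any other start of Xrcc6 is not given here. The other largest differences were 2.58 points for Polm, -0.606 for Xrcc5 and -0.553 for Dclre1c, against a median of 0.705 over the list and of 0.970 over all promoters. Hmgb1, Hmgb2 and Atm passed the adjusted p with differences under 1 point, as 19.9% of all promoters passed it with no minimum difference.

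Of 6 partners of the pre-B and pre-T receptors 5 were called, against 1.37% of all promoters. Cd79a and Cd79b, which carry the signal of the pre-B receptor, had -59.6 and -29.6 points, and Blnk, the adaptor below it, had -43.2. Btk, a kinase on the X chromosome, was at 56.1% in female B, 18.2% in male B, 67.4% in female T and 58.1% in male T cells (-25.6). Of the fits that left out 1 library, only that without female B cells called it (-44.6), and without male B cells the difference was -6.67 (edgeR adjusted p 0.651). Btk was also called between the sexes, 23.6 points higher in females (edgeR adjusted p 7.21e-05). Ptcra, which takes the place of the T cell receptor alpha chain in precursor T cells, was at 94.5% in female B, 92.4% in male B, 70.8% in female T and 72.0% in male T cells, which is lower in T cells by 22.0 points. The median of the list was -27.6. Without female T or without male T cells none of the 6 was called, as the adjusted p rose over 0.05. The differences of Cd79a were then -60.9 and -58.3, those of Blnk -42.7 and -43.7, those of Cd79b -28.2 and -31.0 and those of Ptcra 21.4 and 22.6.

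Of 12 genes of precursor stages, 8 had means under 20% in both cell types (56.0% of all promoters), and 1 was called (1.37% of all). Il7r, the receptor for interleukin 7, was lower in T cells, with 47.5% in female B, 43.3% in male B, 25% in female T and 19.9% in male T cells (22.9 points). None of the 4 fits that left out 1 library called it by its adjusted p, while the difference lay between 20.4 and 25.5 points. Enpep (-11.0) and Cd93 (-5.62) had the largest differences in the other direction, and passed the adjusted p only, as did Myb at 0.435 points. The next after Il7r was Cd34, with 2.18 points. The median of the list was -0.722.

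The labelled cell types were compared on marker promoters. These lists were chosen with earlier results of these data known, so the counts are no independent check of the labels. All 5 B cell marker promoters were called lower in B cells (Cd79a and Cd79b stand in this list too), as were 0.41% of all promoters, and all 5 T cell marker promoters lower in T cells, as were 0.956%. Of the B cell markers only Ms4a1 was called without female T or without male T cells, whereas the T cell markers were called in all 4 fits that left out 1 library. Of the other cells a sort could hold, both cytotoxic T cell markers (Cd8a and Cd8b1) were called lower in T cells, and none of the natural killer, myeloid, plasma cell or erythroid markers was called (12 genes in all, of which 2 myeloid ones passed the adjusted p). Cd8b1 had means of 90.1% in B and 29.5% in T cells, and Cd8a of 85.4% and 56.7%, in T cells sorted as CD4+. The range of the means of the natural killer markers was 29.0% to 87.6% in B and 18.9% to 89.0% in T cells, and that of the myeloid markers was 47.8% to 89.4% and 52.0% to 91.2%. Their part in the results was not tested.

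The promoters with levels most like the called ones, by the mean absolute difference over the 4 libraries at RefSeq starts, were listed for each gene. For Igll1 they were Cd22, Cd79a and Pou2f1, 3.23 to 6.24 points away. Sh3bp5, Nup160 and Kcnj1 came nearest to Vpreb1 (2.59 to 4.04 points). Hdac9, Fcrla and Il4i1 came nearest to Vpreb3 (3.18 to 5.55 points), and Lgals3bp, Sytl3 and Ifit1 to Dntt (1.58 to 2.13 points). For Vpreb2, called at its GENCODE start only, they were Ren1, Ankub1 and Pfpl (1.55 to 2.42 points).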

How the data were processed

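The labels' processing notes name FastQC, Trim Galore and Bismark 0.13.1 and the mouse build mm10. For each CpG with at least 5 reads the authors deposited the methylation level as a fraction and its read number as a count, with 1 table per group. Duplicate removal and the handling of reads that map to several places are not given in the sources used here. The deposited fractions were rounded up, so methylated reads were recovered as whole numbers (100% of values). Positions matched GRCm38.

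Reads of CpGs listed in all 4 libraries were summed over promoters (1 kb on either side of GENCODE M21 starts), 1-kb tiles, gene bodies and gene windows (10 kb on either side) with at least 5 CpGs and 20 reads in every library. All regions of a kind were fitted together with edgeR 4.0.16 (quasi-likelihood, R 4.3.3), with terms per library and for methylation, cell type and sex, and Benjamini-Hochberg adjustment over the kind. The fit leaves 1 residual degree of freedom, and the promoter and tile fits each shared 1 spread over all their regions (infinite prior degrees of freedom), so their p-values measure departure from that shared spread. A contrast of female B and male T against the others replaced the sex term to compare B minus T between the sexes. Where a library was left out, the fit had no sex term and another shared spread. For promoters the common dispersion was then 0.0369 to 0.0439, with 3.79 to 4.02 prior degrees of freedom, against 0.0109 in the main fit. For tiles it was 0.0103 to 0.0127, against 0.00626. A promoter call lost in those fits therefore cannot be attributed to the left-out library alone. Alternatives were limma 3.58.1 on log2((methylated + 1)/(unmethylated + 1)), other read minimums, widths, flanks and CpG sets, no sex term and no minimum difference. Wilson intervals (95%) cover counting error only, since reads carry no molecular identifiers. Sequences came from RefSeq (GRCm38.p6, all 7 genes matched), and the Vpreb copies were aligned with blastn 2.17.0.

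Named were the 7 genes, every called tile and neighbouring genes holding one, of each list the called genes and the 2 largest differences in each direction, and the 3 nearest promoter patterns per called gene. Nearest patterns are given at RefSeq starts, and at the GENCODE start for Vpreb2. The members and the lists were chosen with earlier results of these data known.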

Additional observations from a re-analysis of the deposited data

How the results depend on the processing

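No paired analysis was possible because the groups share no replicate number. Of the 20 called tiles, 17 were called in all 4 fits that left out 1 library (18 to 21 tiles called in each), among them all 16 lower in B cells, and 17 were called by limma. With no minimum difference 42 tiles, 5 gene windows, 3 end joining, 6 receptor partner, 4 precursor and 2 myeloid promoters passed. Of all regions 9.35% of tiles, 39.8% of gene windows and 19.9% of promoters did. Leaving out 1 library gave 1 to 2 called promoters of the 7, where 3 were called with all, and difference ranges of -22.9 to -19.7 points for Vpreb2, 18.2 to 22.4 for Dntt, -4.83 to 3.36 for Vpreb3 and -0.345 to 2.26 for Vpreb1, around GENCODE starts. Dntt fell under the minimum at 10 reads per CpG (17.8) and with 500 bases on either side (17.7), where Vpreb3 (1.93) and Rag2 (-0.123) changed sign. Around GENCODE starts Dntt and Vpreb2 were called by limma (limma adjusted p 0.0367 and 0.0147) and without the sex term (edgeR adjusted p 0.0408 and 0.0235). RefSeq starts gave -44.7 for Vpreb1, -12.1 for Vpreb2 and -59.9 for Vpreb3. Igll1 was called with 5 kb on either side (-21.3, the 1 window called) and in the body alone (-43.0), as was Vpreb3 (-29.6), and Rag2 became -3.07 in the body. Leaving out 1 library gave 0 to 5 receptor partners, 1 to 4 B cell markers, 1 to 2 cytotoxic markers and 0 precursor genes. The last was also 0 without the sex term and with 500 bases on either side, where 3 B cell markers were called. A running level under 30% gave 23.0% of CpGs low in female B, 21.7% in male B, 18.5% in female T and 18.0% in male T cells, against 30.4%, 30.4%, 25.1% and 25.2%, and 14.1% low in both (12.7% in all gene windows). In all gene windows the shares per library, in the same order, were 13.7%, 13.8%, 14.2% and 14.4%, against 15.6%, 15.6%, 16.4% and 16.5%. For limma, for fits without 1 library and for other widths or flanks, the share of all regions called is not given here. Counts of calls in those fits thus have no background beside them. The causes were not tested.

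Each cell type had 2 libraries, so small differences such as those of Rag1 and Rag2 cannot be read as equality, and CpGs under 5 reads are not listed.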

Other observations

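Between 10 and 25 kb from the gene bodies 6 of 120 further 1-kb tiles were called, or 5%, against 3.17% of all tiles. On the side of Igll1 and Vpreb1 the tile from 16895001 differed by -38.9 points, and near Vpreb2 the tile from 17962001 was lower in T cells, by 57.5 points. Near Vpreb3 the tile from 75919001 gave 23.7 points, and near Rag2 that from 101608001 gave 25.4, which was 18.8 and not called without female T cells. Upstream of Dntt the tiles from 41007001 and 41012001 were lower in B cells, at -35.4 and -21.1 points, the opposite direction to the Dntt start. The second of these was under the minimum without male B (-18.4) or male T cells (-19.8).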
